A study of Mus musculus with 7 samples.

Results

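Myelin is the lipid-rich membrane that glia wrap around axons, made by oligodendrocytes in the central nervous system and by Schwann cells in peripheral nerves. Mouse retinal axons are normally unmyelinated within the eye and acquire myelin in the optic nerve behind it. The 7 genes described here were chosen by name: Mbp, Mag, Mog, Cnp and Mal, which serve the myelin sheath of oligodendrocytes and in part of Schwann cells, Prx, a gene of the peripheral sheath, and Sox10, a transcription factor gene of both kinds of glia. All 7 were found among the 54532 genes of the count table, and 6 of them had enough counts to be tested. The exception was Mog. The counts come from poly-A selected RNA of mouse retina, with 4 libraries of mice that received the vasoconstrictor hormone angiotensin II (Ang II) by infusion and 3 of mice that received saline, all labelled day 28. By the series text both groups were ApoE-/- mice, but the genotype in the sample labels is WT. Neither gives their age, their strain or the number of animals behind a library.

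Total counts per library were 15374638 to 17563493 in Ang II and 14655431 to 16679829 in saline, so 1 count was worth 0.0566 to 0.0700 CPM, the count relative to the scaled library size. Apoe, the gene that the series text has deleted, ranged over 15.4 to 25.6 CPM in the Ang II libraries and 10.5 to 18.8 CPM in the saline libraries. The tissue label was borne out by Sag, the arrestin gene of photoreceptors, at 3346 to 3647 CPM in Ang II and 3245 to 4256 CPM in saline. Some libraries stood apart in genes of neighbouring tissue. The 10 pigment epithelium genes, 2 of which (Otx2 and Krt18) the retina also expresses, summed to 1411 to 2230 CPM in Ang II, against 472 and 491 CPM in saline replicates 1 and 2 and 1283 CPM in saline replicate 3. The 6 lens genes reached 2962 CPM in Ang II replicate 2 and lay between 1.93 and 587 CPM in the other 6 libraries, and the 10 skeletal muscle genes reached 274 CPM in Ang II replicate 3 and 6.22 to 22.8 CPM in the others.

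None of the 6 tested members was called different between Ang II and saline by edgeR's quasi-likelihood test. With adjusted p under 0.05 as the threshold, 0 of 6 were called, beside a background of 0% of 17078 genes. At an unadjusted p under 0.05 the count was again 0 of 6, beside 4.62% of all genes tested (2.9% higher and 1.72% lower in Ang II), and the groups of libraries overlapped in all 6, whereas they did not overlap in 5.91% of all genes. DESeq2 called 0 of 6 (35 of all genes) and limma-voom with quality weights called 1, Sox10 (114 of all genes). The members did not move as a set: 4 had a log2 fold change above 0 and 2 below, and the median was 0.11, beside -0.00 over all genes tested. The median size of the log2 fold change, sign aside, was 0.47 over the members and 0.11 over all genes. That larger value came from Prx, Sox10 and Mag, described below, 3 low genes that vary widely between libraries.

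Several marker genes of myelinating cells and their lineages were near or at 0 in these libraries, while others on the same lists were not. Zfp488, on the oligodendrocyte lineage list, had 254 to 328 counts per library. On the Schwann cell list, Ngfr had 707 to 868 and Scn7a 281 to 365. The label of myelin and Schwann cell genes therefore describes the genes and not cells shown to be present. Whether such cells were present was not tested. Olig1 and Olig2, transcription factor genes that mark the oligodendrocyte lineage, and Nkx2-2, which acts with them, had 0 counts in every library, which allows up to 0.210 CPM each in the shallowest. Mobp, an abundant gene of the compact central sheath, had 2 counts in saline replicate 2 and 0 counts elsewhere. Opalin, a membrane protein gene of mature oligodendrocytes, had a single count in each of Ang II replicate 1 and saline replicate 2. Foxd3, a transcription factor gene of neural crest cells and early Schwann cell precursors, had 0 counts in all 7 libraries. Egr2, the transcription factor gene that starts Schwann cell myelination, had 0 to 2 counts in Ang II and 1 to 5 in saline. The limit from a count of 0 covers counting error only.

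Set per kilobase of annotated exon, which is the scale on which genes can be compared, the members fell into an upper and a lower group. Mbp averaged 5.56, Cnp 5.14 and Mal 4.93 CPM per kb over the 7 libraries, and 53.8%, 51.9% and 50.9% of the tested genes had a lower level per kb. The ranges of these 3 over libraries overlapped, at 5.18 to 6.18 for Mbp, 4.03 to 7.03 for Cnp and 3.11 to 7.38 CPM per kb for Mal, so their order is within their spread. Sox10 followed with 1.15 CPM per kb, and Mog (0.198), Prx (0.198) and Mag (0.162) were last, with ranges that overlapped each other and that of Sox10. Mag and Mog, which encode adhesion proteins on the inner and outer faces of the central sheath, were below Mbp per kb by log2 ratios of -5.10 and -4.81.

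**Figure D1:**
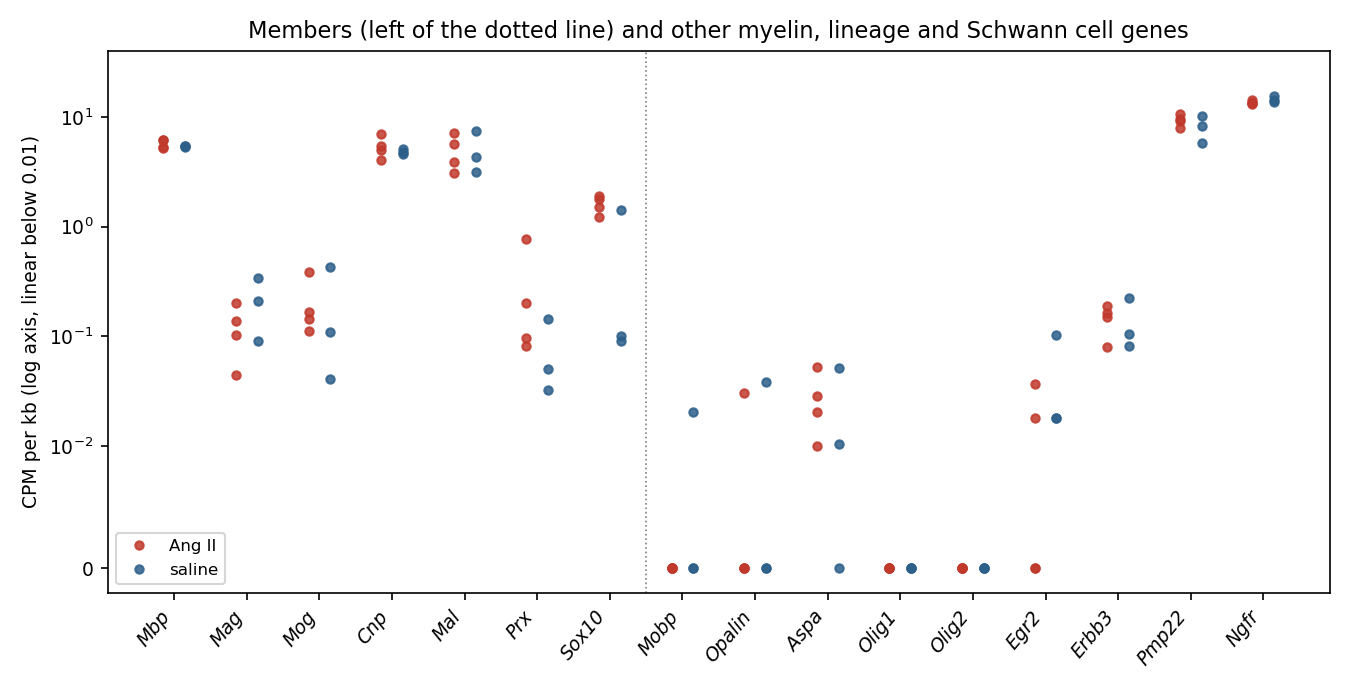
Level in CPM per kb of annotated exon (log axis, linear below 0.01) of the 7 members, left of the dotted line, and of 9 other myelin, lineage and Schwann cell genes, right of it, with 1 point per library (Ang II left, saline right of each gene's centre). Mbp, Cnp and Mal sit near 5 CPM per kb, while Olig1 and Olig2 are at 0 in all 7 libraries and Mobp in 6 of them.

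Mbp encodes myelin basic protein, which joins the cytoplasmic faces of the compact sheath. The same gene also makes the longer golli transcripts, which are found in neurons and immune cells, and gene counts do not separate them. It was at 44.3, 51.9, 43.6 and 51.3 CPM in Ang II replicates 1 to 4, against 45.7, 44.7 and 45.5 CPM in saline replicates 1 to 3. The saline libraries lay between the lowest and the highest Ang II libraries, and Mbp had the smallest spread of the members, at 1.19 times from lowest to highest. The means were 47.8 ± 4.45 CPM in Ang II and 45.3 ± 0.510 CPM in saline (SD, n = 4 and 3), a log2 fold change of 0.08 ± 0.10 (SE, edgeR adjusted p = 0.983). Its 95% interval, -0.13 to 0.29, bounds the difference more tightly than that of any other member. Mbp (ENSMUSG00000041607) lies on chromosome 18 from 82475146 to 82585637, plus strand, in mm10, the build that the coordinates below also use.

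Cnp encodes a phosphodiesterase that keeps cytoplasmic channels open in the sheath. Its levels were 14.7, 18.0, 25.6 and 19.8 CPM in Ang II replicates 1 to 4, against 17.3, 16.9 and 18.7 CPM in saline replicates 1 to 3. Ang II replicate 3 was the high library and Ang II replicate 1 the low one, with all saline libraries between them. The log2 fold change was 0.14 ± 0.17 (edgeR adjusted p = 0.982, 95% interval -0.21 to 0.50), and without Ang II replicate 3 it was -0.01. In that same library Gfap, a filament gene that glia raise on injury, reached 79.7 CPM, while the other Ang II libraries held 6.83 to 8.04 and the saline libraries 9.21 to 9.59 CPM. The part of glial reaction or of the muscle RNA in that library in the Cnp value was not tested. Cnp (ENSMUSG00000006782, chromosome 11, 100574904 to 100591729, plus strand) shares 154 exon bases, 4.23% of its own, with Dnajc7 on the opposite strand, and reads there cannot be told apart because the library preparation did not mark the strand.

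Mal encodes a lipid raft protein of myelin that epithelial cells and T cells also use. It was at 19.6, 15.7, 8.65 and 10.7 CPM in Ang II replicates 1 to 4, against 8.78, 11.9 and 20.5 CPM in saline replicates 1 to 3. High and low libraries occurred in both groups, at 2.27 times from lowest to highest within Ang II and 2.33 times within saline. The means were 13.7 ± 4.96 CPM in Ang II and 13.7 ± 6.07 CPM in saline (SD, n = 4 and 3), a log2 fold change of -0.01 ± 0.36 (edgeR adjusted p = 0.999). The 95% interval of -0.84 to 0.83 leaves room for a difference in either direction, and the sign turned with the scaling (0.03 with library size alone). Mal (ENSMUSG00000027375) lies on chromosome 2, 127633226 to 127656695, minus strand.

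Mag encodes a lectin of the membrane next to the axon, in both central and peripheral myelin. It had 10, 3, 13 and 7 counts in Ang II replicates 1 to 4, against 6, 20 and 14 counts in saline replicates 1 to 3. As levels these were 0.183 to 0.821 CPM in Ang II and 0.371 to 1.40 CPM in saline, with saline replicate 2 highest and the groups overlapping. The log2 fold change was -0.79 ± 0.57 (edgeR adjusted p = 0.982), and -0.30 without saline replicate 2. Mag (ENSMUSG00000036634) lies on chromosome 7, 30899176 to 30914873, minus strand.

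Mog encodes an immunoglobulin-fold protein on the outer face of the sheath and is expressed late in oligodendrocytes. Only 5, 4, 3 and 11 reads fell on Mog in Ang II replicates 1 to 4, against 3, 1 and 12 in saline replicates 1 to 3, too few to pass the filter on low counts. Ang II replicate 4 and saline replicate 3 were the high libraries, so the range of the saline group enclosed that of Ang II. Levels averaged 0.345 ± 0.215 CPM in Ang II and 0.329 ± 0.354 CPM in saline (SD, n = 4 and 3). With no filter, edgeR gave a log2 fold change of 0.05 (adjusted p = 0.993). Mog passed the filter without saline replicate 1 or 2, and its log2 fold change was then -0.25 or -0.41 (edgeR adjusted p = 0.996 and 0.969), so the sign turned. A difference was not detectable at this depth. Mog (ENSMUSG00000076439) lies on chromosome 17, 37010743 to 37023398, minus strand.

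Prx encodes periaxin, a scaffold that ties the Schwann cell membrane to laminin through the dystrophin-related protein of Drp2, and it is also known from lens fibre cells. It had 8, 71, 18 and 9 counts in Ang II replicates 1 to 4, against 13, 4 and 3 counts in saline replicates 1 to 3. In CPM, Ang II replicate 2 stood at 4.33 and the other Ang II libraries at 0.453, 1.14 and 0.542, against 0.804, 0.280 and 0.183 in saline. A single library was high, and the remaining Ang II libraries overlapped with saline. The log2 fold change was 1.90 ± 0.89 (edgeR adjusted p = 0.982, unadjusted p = 0.0597), and without Ang II replicate 2 it was 0.72 (unadjusted p = 0.295, on the genes kept with all 7 libraries). A fold change of this size or more, in either direction, was found in 0.322% of the genes tested.

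The library with the high Prx level also held the most lens RNA, with 48546 counts in the 6 lens genes, beside 32 to 9300 counts in the other Ang II libraries and 554 to 9580 in saline. The lens crystallin gene Cryaa was at 1307 CPM there. Ang II replicate 3, with 9300 lens counts, had the second highest Prx level, at 18 counts, while saline replicate 3, with 9580 lens counts, had the lowest, at 3 counts. The 8 fibroblast and sheath genes summed to 26.2 CPM in Ang II replicate 2, to 14.9 to 21.5 CPM in the other Ang II libraries and to 13.4 to 19.4 CPM in saline. Of these, Ogn, a small proteoglycan gene, and the collagen gene Col1a2 were highest in Ang II replicate 2, at 5.86 and 5.00 CPM, and the other 6 were highest in another library. Of the Schwann cell genes, Egr2 had 1 count in Ang II replicate 2, and Gjb1, a gap junction gene of the peripheral sheath, had 7 counts there, beside 0 to 1 in the other Ang II libraries and 0 to 2 in saline. The part of lens or sheath RNA in the Prx value was not tested. Prx (ENSMUSG00000053198, chromosome 7, 27499324 to 27520214, plus strand) shares 300 exon bases with the antisense gene Gm15541, which had 10 counts over all libraries.

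Sox10 encodes a transcription factor of the neural crest that is needed for Schwann cells, melanocytes and maturing oligodendrocytes. It had 102, 61, 86 and 77 counts in Ang II replicates 1 to 4, against 5, 4 and 71 counts in saline replicates 1 to 3. The levels were 5.78, 3.72, 5.43 and 4.64 CPM in Ang II, against 0.309, 0.280 and 4.33 CPM in saline. Saline replicates 1 and 2 were low, while saline replicate 3 lay within the range of Ang II. The means were 4.89 ± 0.913 CPM in Ang II and 1.64 ± 2.33 CPM in saline (SD, n = 4 and 3), a log2 fold change of 1.55 ± 0.89 (edgeR adjusted p = 0.982). A fold change of this size or more was found in 0.679% of the genes tested. Sox10 (ENSMUSG00000033006) lies on chromosome 15, 79154908 to 79165240, minus strand.

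Sox10 was the member whose call hung on a single library. Without saline replicate 3 its log2 fold change was 4.02 with an edgeR adjusted p of 5.74e-05, and without saline replicate 1 or 2 it was 1.06 or 1.07 (adjusted p = 0.996 and 0.937). Limma-voom with quality weights, which gave saline replicates 1, 2 and 3 weights of 3.33, 0.430 and 0.632, put it at 3.22 (adjusted p = 0.0163), and DESeq2 at 1.58 (adjusted p = 0.999). With the level of the pigment epithelium list as a covariate it was -0.44 (edgeR adjusted p = 0.998). That level itself differs between the groups, so the covariate takes part of any group difference with it. Whether the treatment was the source of the differing level was not tested.

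**Figure D2:**
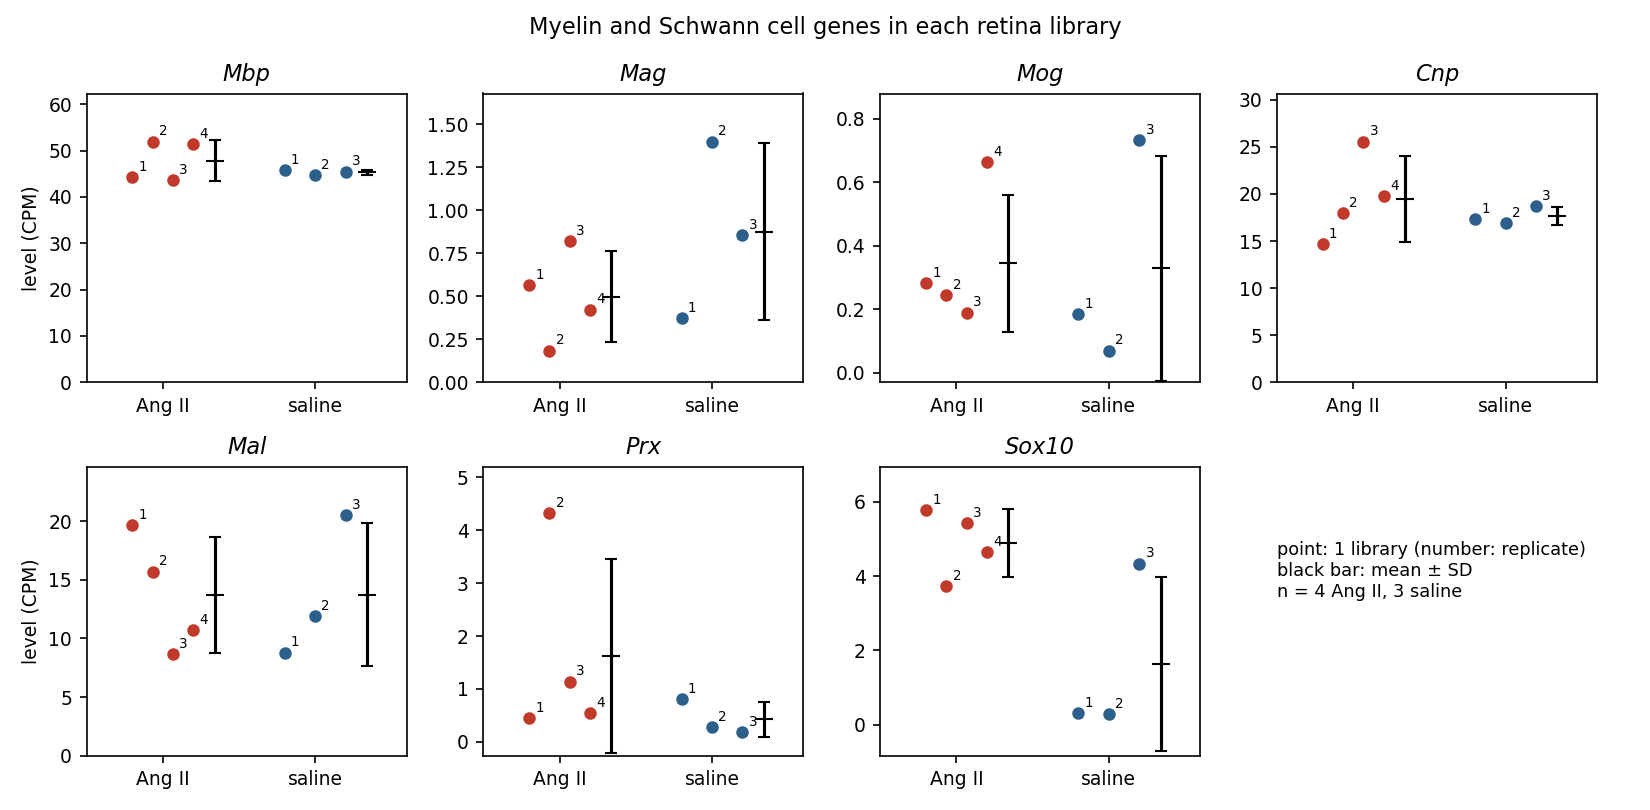
Level in CPM of each member in each library, Ang II left and saline right in each panel, with the replicate number beside each point and the mean ± SD as a black bar (n = 4 and 3). Mbp is nearly level, Prx is high in Ang II replicate 2 alone at 4.33 CPM, and Sox10 is low in saline replicates 1 and 2 at 0.309 and 0.280 CPM.

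**Figure D3:**
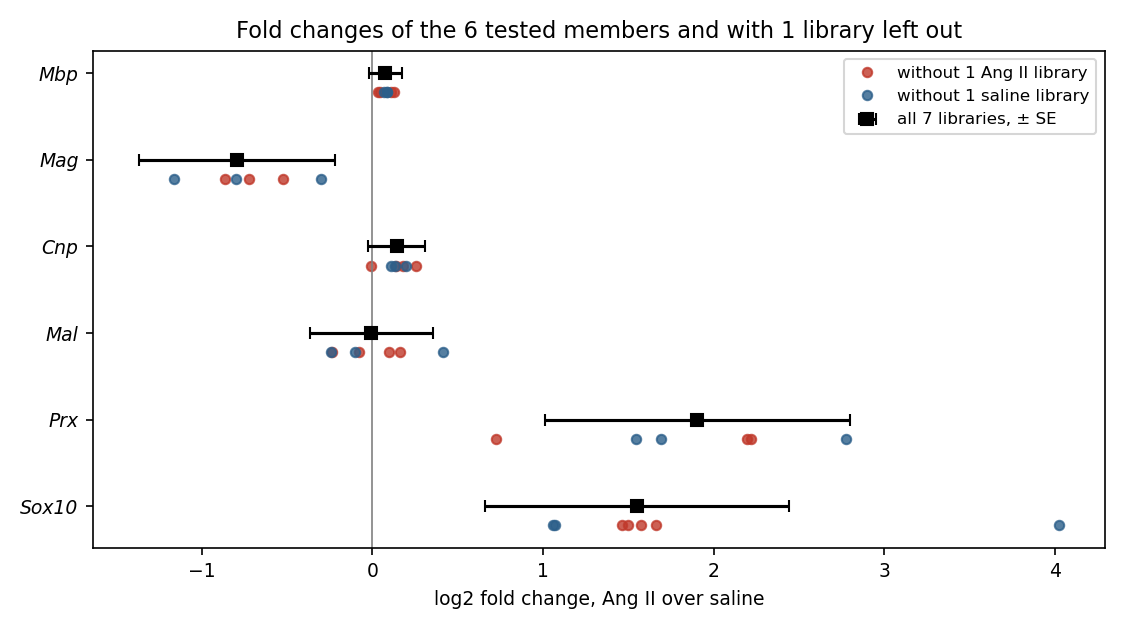
Log2 fold change of Ang II over saline for the 6 tested members (squares, ± SE, edgeR) and the same value with 1 library left out (red, an Ang II library; blue, a saline library), where the gene still passed the filter, and for Prx without Ang II replicate 2 on the genes kept with all 7 libraries. Sox10 reached 4.02 without saline replicate 3, and Prx was 0.72 without Ang II replicate 2.

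Across libraries Sox10 followed some genes of pigmented cells more closely than the other members, but not all. Its Pearson correlations were 0.962 with Rpe65, 0.927 with Tyr and 0.793 with Dct. They were 0.176 with Pmel and -0.273 with Mlana, both on the melanocyte list. Among the members the highest was 0.635, with Mog. Tyr, the tyrosinase gene of melanin synthesis, was at 9.97, 8.85, 14.9 and 8.44 CPM in Ang II replicates 1 to 4, against 1.67, 2.03 and 4.70 CPM in saline replicates 1 to 3. Rpe65, the isomerase gene of the pigment epithelium, was at 151.7, 146.9, 204.1 and 106.9 CPM in Ang II, against 19.7, 25.8 and 91.8 CPM in saline. Both were low in saline replicates 1 and 2, as Sox10 was. Of the genes with a mean of at least 1 CPM, the 5 most like Sox10 by Pearson correlation of log2 CPM over 7 libraries, taken among named protein-coding genes, were Wipf1, Stambpl1, Lrat, Slc16a8 and Fap, at 0.984 to 0.998. Lrat, an acyltransferase gene of the visual cycle, and Slc16a8, a lactate transporter gene, belong to the pigment epithelium. Wipf1, Stambpl1 and Fap are on neither the pigment epithelium list nor the melanocyte list. The correlations with Sox10 rest on saline replicates 1 and 2, which stand apart from the other 5 libraries, and are given as a measure of likeness alone.

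Genes on the melanocyte list did not all share that pattern. Whether the list separates melanocytes from the pigment epithelium was not tested. Of 10 melanocyte genes, 0 passed the test, 8 were above 0 and 2 below, with a median log2 fold change of 0.51. Their summed level was 66.1 to 116 CPM in Ang II and 42.4 to 70.0 CPM in saline. At an unadjusted p under 0.05 there were 3 of 10, Tyr, Mitf and Oca2, beside 4.62% of all genes tested. Tyr and Mitf were higher in every Ang II library than in any saline library, which is 2 of 10, beside 3.18% of all genes. The log2 fold change was 1.90 ± 0.34 for Tyr (edgeR adjusted p = 0.312) and 0.51 ± 0.14 for Mitf (adjusted p = 0.875). Mitf was at 10.6, 10.1 and 9.15 CPM in saline replicates 1 to 3. Dct, the dopachrome tautomerase gene, was at 14.2 to 39.7 CPM in Ang II and 6.09 to 20.6 CPM in saline, and Oca2, a melanosome transport gene, had a log2 fold change of 1.93 ± 0.76 (edgeR adjusted p = 0.982). Mlana, a melanosome gene, was at 0.189 to 2.93 CPM in Ang II and 1.12 to 1.61 CPM in saline, with saline replicates 1 and 2 near saline replicate 3. Sox10 also varied more than the pigment epithelium genes did. For each 1000 counts of Rpe65 there were 38.1, 25.3, 26.6 and 43.4 of Sox10 in Ang II replicates 1 to 4, against 15.7, 10.8 and 47.2 in saline replicates 1 to 3, a spread of 4.35 times beside 20.6 times for Sox10 CPM. In whole tissue, fewer cells of a type and less RNA per cell cannot be told apart, and the part of pigmented tissue in the Sox10 value was not tested.

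**Figure D4:**
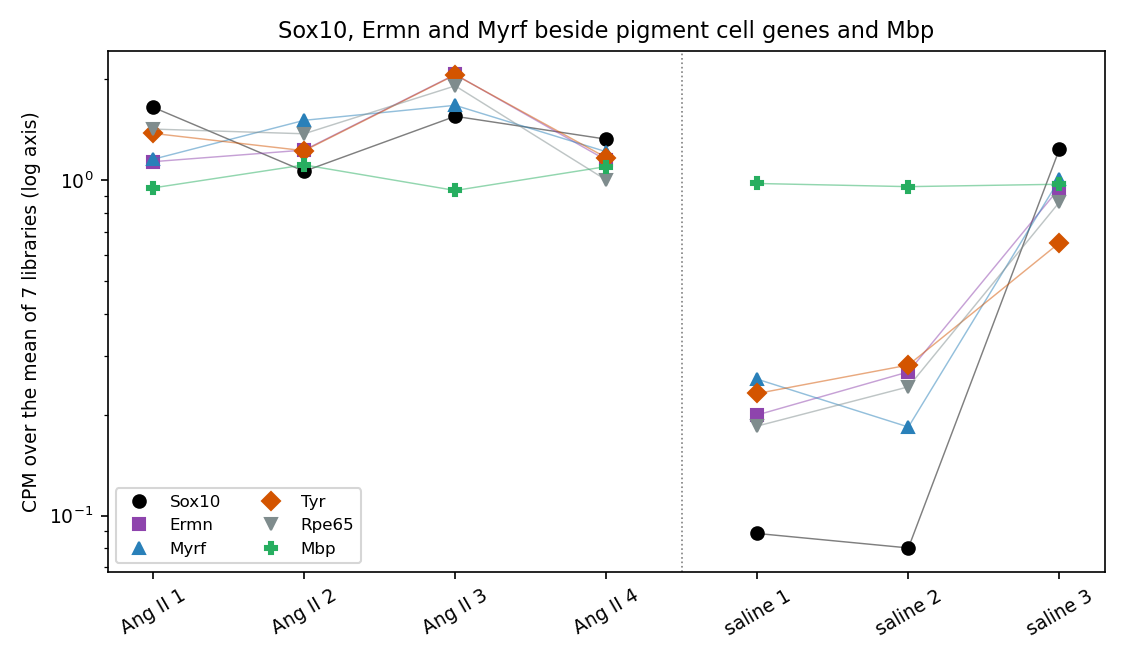
CPM of each gene over its own mean of the 7 libraries (log axis), Ang II libraries left of the dotted line and saline right of it. Sox10, Ermn and Myrf are low in saline replicates 1 and 2 together with Tyr and Rpe65, while Mbp stays near its mean in every library.

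A pair of further oligodendrocyte genes showed the same libraries as low. Ermn, a cytoskeletal gene of the myelin sheath, was at 11.3, 12.2, 20.5 and 11.4 CPM in Ang II replicates 1 to 4, against 1.98, 2.66 and 9.40 CPM in saline replicates 1 to 3 (log2 fold change 1.55 ± 0.58, edgeR adjusted p = 0.982). Myrf, the transcription factor gene that drives myelin genes in oligodendrocytes and is also known from the pigment epithelium, was at 21.6 to 31.2 CPM in the Ang II libraries, against 4.76, 3.43 and 18.8 CPM in saline replicates 1 to 3 (1.52 ± 0.63, adjusted p = 0.982). All Ang II libraries lay above all saline libraries for both. For each 1000 counts of Rpe65, Ermn had 74.3 to 107 counts in Ang II and 100.3 to 103 in saline, a spread of 1.43 times where its CPM spread 10.4 times, and the Myrf ratio spread 1.82 times where its CPM spread 9.11 times. The part of pigment epithelium in both values was not tested.

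In pigment cells Sox10 is known to act on the promoter of Dct and Mitf, a factor that Sox10 itself activates, on that of Tyr, through the SOX motif (ACAAAG or ACAATG) and the M-box (CATGTG) or E-box (CACGTG). The 250 bases before the RefSeq start (GRCm38.p6) of these pigment genes and of Ermn, whose ratio to Rpe65 varied less than those of Myrf and Sox10, are shown with each match on either strand in capitals. No match overlapped another. Dct is at chr14:118052247-118052496, Tyr at chr7:87493513-87493762 and Ermn at chr2:58052865-58053114, all on the minus strand and written 5′ to 3′ toward the gene.
Dct: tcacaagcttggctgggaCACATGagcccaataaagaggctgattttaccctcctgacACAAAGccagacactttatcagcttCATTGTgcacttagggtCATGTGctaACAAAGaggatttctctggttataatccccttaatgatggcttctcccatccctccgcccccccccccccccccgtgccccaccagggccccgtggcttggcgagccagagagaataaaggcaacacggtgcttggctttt
Tyr: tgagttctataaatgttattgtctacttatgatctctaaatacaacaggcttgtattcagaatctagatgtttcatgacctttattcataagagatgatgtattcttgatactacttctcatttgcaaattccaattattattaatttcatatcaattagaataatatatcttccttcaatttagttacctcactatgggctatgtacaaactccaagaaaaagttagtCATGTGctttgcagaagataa
Ermn: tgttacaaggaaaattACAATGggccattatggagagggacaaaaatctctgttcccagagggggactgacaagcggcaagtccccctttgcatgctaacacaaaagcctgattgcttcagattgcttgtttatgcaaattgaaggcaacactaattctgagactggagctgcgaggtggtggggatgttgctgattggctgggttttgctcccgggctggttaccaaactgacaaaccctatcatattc
Dct held 5 matches, Tyr 1 M-box and Ermn 1 SOX motif. Of the members, 5 had an entry among the promoters searched, and Mbp and Sox10 had none, so theirs were not examined. Mag and Cnp held 1 ACAAAG each, and Mog, Mal and Prx held none of these motifs in the window. Of 32851 promoters of the same length, 25.2% held a SOX motif and 17.6% an M-box or E-box, so a match is a description alone.

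The other genes of the central sheath, a list of 15, showed 0 calls among the 8 tested, with 5 above 0 and 3 below and a median log2 fold change of 0.29. Ermn, Myrf and Tspan2 were higher in every Ang II library than in any saline library, which is 3 of 8, beside 3.18% of all genes in that direction. Tspan2, a tetraspanin gene, was at 8.15 to 10.7 CPM in Ang II and 5.95 to 8.10 CPM in saline (log2 fold change 0.28 ± 0.19, edgeR adjusted p = 0.982). The list's summed level was 54.4 to 75.2 CPM in Ang II and 24.3 to 47.3 CPM in saline. Ermn and Myrf made up most of it in the Ang II libraries and in saline replicate 3. In saline replicate 1 they held only 1.98 and 4.76 of 27.9 CPM, and in saline replicate 2 only 2.66 and 3.43 of 24.3 CPM.

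Of 16 other Schwann cell and peripheral myelin genes, 12 were tested and 0 called, with 3 above 0 and 9 below and a median of -0.11. S100b, a calcium-binding protein gene of Schwann cells and astrocytes, had the smallest p. It was at 7.42, 7.20, 5.11 and 7.11 CPM in Ang II replicates 1 to 4, against 9.40, 14.5 and 8.30 CPM in saline replicates 1 to 3, with all Ang II libraries below all saline libraries (log2 fold change -0.67 ± 0.21, edgeR adjusted p = 0.982, unadjusted p = 0.00702). It was the 1 of 12 that did not overlap in that direction, beside 2.73% of all genes. Pmp22, a membrane protein gene of peripheral myelin also expressed widely outside it, was at 18.7 to 24.9 CPM in Ang II and 13.7 to 24.1 CPM in saline (0.20 ± 0.17, adjusted p = 0.982). Ncmap, a gene of the non-compact Schwann cell sheath, was at 2.56 to 3.72 CPM in Ang II and 3.22 to 4.27 CPM in saline (-0.33 ± 0.26, adjusted p = 0.982), and Erbb3, the neuregulin receptor gene of Schwann cells, at 0.482 to 1.14 CPM in Ang II and 0.488 to 1.36 CPM in saline (0.08 ± 0.49, adjusted p = 0.996). Drp2, whose product binds periaxin, was at 13.2 to 19.3 CPM in Ang II and 14.4 to 20.9 CPM in saline, and did not share the high Prx library, where it was at 15.3 CPM.

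Genes of the axon's contact with glia varied little between the groups, and the tested genes of the oligodendrocyte lineage varied more. Of the 10 lineage genes, 4 were tested and 0 called, with a median log2 fold change of 0.05. The median size, sign aside, was 0.16 for these 4 and 0.06 for the contact and node genes, beside 0.11 over all genes tested. Pdgfra, the growth factor receptor gene of oligodendrocyte precursors and also of other retinal cells, was at 8.65 to 10.3 CPM in Ang II and 6.86 to 9.46 CPM in saline (0.23 ± 0.18, edgeR adjusted p = 0.982). Sox8, a close relative of Sox10 that Müller glia also express, was at 18.5 to 26.1 CPM in Ang II and 22.7 to 27.9 CPM in saline (-0.26 ± 0.14, adjusted p = 0.982). The 10 contact and node genes had 0 calls, 5 above and 5 below 0, a median of -0.03 and a range of -0.14 to 0.12, among them Gas6, a ligand of TAM receptors (-0.14 ± 0.08, adjusted p = 0.982), and Cntnap1, the paranodal adhesion gene (-0.07 ± 0.09, adjusted p = 0.983).

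Mbp and Prx had other nearest genes than Sox10. By the same measure over 7 libraries, Synj2, Flrt2, Stard8, Tnc and Btbd11 were most like Mbp, at 0.938 to 0.968. Synj2, a lipid phosphatase gene, was at 38.4, 45.5, 39.5 and 46.8 CPM in Ang II replicates 1 to 4, against 41.4, 39.9 and 40.5 CPM in saline replicates 1 to 3, with Ang II replicates 2 and 4 high as for Mbp. Slc9a7, Podn, Brinp3, Bmpr1b and Nid1 were most like Prx, at 0.932 to 0.951. Nid1, a basement membrane gene, was at 13.9 CPM in Ang II replicate 2, at 2.77 to 4.67 CPM in the other Ang II libraries and at 2.44 to 3.71 CPM in saline. With 13165 candidate genes and 7 libraries, no test was made of these values.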

How the data were processed

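The authors deposited whole-number read counts per gene, not normalized, with 1 column per library. The submitters' processing notes list HISAT2 2.0.5, featureCounts 1.5.0-p3 and CASAVA, with mm10 as the build; annotation release, strand setting and rules for shared reads are not given in the sources used here. Columns were matched to samples by their descriptions, with 0 left unmatched.

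Counts were tested with edgeR 4.0.16 in R 4.3.3 (filterByExpr, TMM, robust quasi-likelihood test, two-sided, group as the sole term, Benjamini-Hochberg over 17078 genes, threshold 0.05). The SE is the size of the log2 fold change divided by the root of F, and the 95% interval uses the test's degrees of freedom. CPM uses TMM-scaled library sizes, and log2 CPM a prior count of 2. DESeq2 1.42.0 and limma 3.58.1 were alternatives. The steps were tested on simulated data. P-values measure the spread between these libraries, which may be technical. Exon overlaps are from GENCODE M21 and promoters from RefSeq. Members and the 12 gene lists were chosen with earlier results of these data known. Genes named are the members, up to 3 of smallest p per list, several fixed names, and the 5 most like Mbp, Prx and Sox10; others were chosen after their values were seen. A few genes on these lists are not reported here.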

Additional observations from a re-analysis of the deposited data

Results flagged for a closer look

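Of 60 genes taken by the rule and not at 0 throughout Ang II, 11 had 1 Ang II library far from the other 3. Chance flags about 1 in 20 independent groups, but that rate is no yardstick here. Many of these genes were chosen from the same data, and several stand apart in the same library. The measure is the gap of that library to its nearest neighbour over the range of the group, set against Dixon's 95% critical value. Ang II replicate 3 was the high library for the muscle genes Myh4 (0.982), Tnni2 (0.958) and Tnnt3 (0.951), for Ermn (0.899), for the pigment epithelium gene Slc16a8 (0.874) and for Ncmap (0.872), and the low library for S100b (0.866). Ang II replicate 2 was the high library for Podn (0.942) and for the lens genes Bfsp1 (0.882) and Mip (0.84). Tspan2 was high in Ang II replicate 4 (0.878). The members did not pass the limit, though Prx came close with 0.824 in Ang II replicate 2.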

How the results depend on the processing

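The count of genes called was 0 with edgeR scaled by TMM, by RLE or by library size alone. It was also 0 with the level of the pigment epithelium list as a covariate, an alternative chosen after seeing the data, as was the one of Prx on the genes kept with all 7 libraries. It was 98 without the filter on low counts, 35 with DESeq2, 114 with limma-voom with quality weights and 56 with the replicate block. Leaving out 1 library gave 0 to 117 genes, and the 117 came without saline replicate 3. The replicate numbers were not treated as pairs: same-numbered libraries had correlations of deviations of -0.07, -0.02 and 0.05, and 0 of 3 matched best with their own number. With the block, Sox10 was at 2.25 (edgeR adjusted p = 0.702) and 0 tested members were called.

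Mbp (0.03 to 0.13), Mag (-1.16 to -0.30) and Prx kept their sign under every alternative in which they were tested. Prx ranged from 0.72 to 2.78 with 1 library left out, and it reached 3.19 with the covariate. It came closest to a call without the filter on low counts, at 1.91 (edgeR adjusted p = 0.0578). With DESeq2 Prx was at 1.94 (unadjusted p = 0.0127, adjusted p = 0.777). Mag failed the filter without Ang II replicate 3, and Prx without Ang II replicate 2 or 3. Cnp ranged from -0.01 to 0.26 with 1 library left out and was -0.0620 with the covariate. Without Ang II replicate 3, Cnp was at -0.0083. Mal ranged from -0.24 to 0.41 with 1 library left out, and was above 0 with RLE (0.000275), library size (0.0307), DESeq2 (2.51e-05), limma-voom (0.52) and the replicate block (0.12), and -0.70 with the covariate. Sox10 ranged from 1.06 to 4.02 with 1 library left out, was called with limma-voom (3.22), and was -0.44 with the covariate. The cause of these shifts was not tested. Mag, Mog and Prx had few counts, at most 20, 12 and 71 in a library, and the 71 of Prx were in Ang II replicate 2.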

Other observations

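Astrocyte and optic nerve head genes, the tissue where retinal axons become ensheathed, had 0 calls among 8 tested, with 5 above 0 and 3 below and a median log2 fold change of 0.27. Fgfr3, a growth factor receptor gene, was at 4.08, 7.32, 8.46 and 3.07 CPM in Ang II replicates 1 to 4, against 1.24, 1.19 and 2.38 CPM in saline replicates 1 to 3 (log2 fold change 1.83 ± 0.39, edgeR adjusted p = 0.540). Pdpn, a membrane mucin gene, was at 38.7 to 80.2 CPM in Ang II and 31.7 to 38.9 CPM in saline (0.69 ± 0.23, adjusted p = 0.982). Pax2, a transcription factor gene of optic nerve head astrocytes, had 5 to 11 counts in Ang II and 6, 20 and 21 in saline replicates 1 to 3 (-1.02 ± 0.53, adjusted p = 0.982). Mag was highest in saline replicates 2 and 3 and in Ang II replicate 3, and Pax2 in saline replicates 2 and 3.

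Fibroblast and sheath genes had 0 calls among 5 tested, with Ogn at 1.05 ± 0.41 (edgeR adjusted p = 0.982) and a median of 0.59. Endothelial and epithelial genes had 0 calls among 6 tested and a median of 0.06, with the keratin gene Krt5 at 4.39 CPM in Ang II replicate 2, at 0.505 to 1.93 CPM in the other Ang II libraries and at 0.0700 to 1.36 CPM in saline. Among genes of the retina and its neighbours, edgeR called 0 of 14 retinal cell genes (median log2 fold change -0.09), 0 of 10 pigment epithelium genes (1.64, with 10 above 0 and 7 higher without overlap, beside 3.18% of all genes), 0 of 9 skeletal muscle genes (2.47) and 0 of 6 lens genes (2.24).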
